A study of Mus musculus with 8 samples.

Results

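Natural killer (NK) cells kill target cells by releasing granules that hold perforin and granzymes, and they decide when to do so by weighing signals from activating and inhibitory receptors, many of them lectin-like proteins encoded side by side in the NK gene complex. Several of these genes are also used outside NK cells: the lectin-like receptors by T cells and by subsets of dendritic cells (DCs), granzyme B by activated lymphocytes and plasmacytoid DCs. In mice CD11c, the integrin chain by which DCs are sorted, is carried at a lower level by NK cells and by macrophages. The 10 genes described here were taken by name from among 22180 genes with a probe set of their own, and each was measured by 1 probe set. They comprise 4 genes of the lytic granule (*Gzma*, *Gzmb*, *Prf1*, *Nkg7*), 5 surface receptors (*Ncr1*, *Klrk1*, *Klrb1c*, *Klrd1*, *Klra17*) and the T-box transcription factor *Eomes*.

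Expression was profiled on arrays in splenic DCs of 8-week-old mice in 2 settings. The first compared 3 arrays of Lkb1-deficient DCs (Cd11cCreLkb1f/f mice, whose Cre recombinase is driven by the Cd11c promoter and so is not limited to DCs) with 3 arrays of WT DCs (Lkb1f/f mice, which carry the floxed allele without Cre). The second compared 1 array of DCs from mice given lipopolysaccharide (LPS, a bacterial product that activates DCs) overnight with 1 array of DCs from untreated control mice. The labels put all 8 arrays on a C57BL/6 background and call the mice of the second setting wild type, whereas the study's figure legend names Lkb1f/f mice for it. No label says whether an array held 1 mouse or a pool, the LPS dose of these arrays is not given in the sources used here, and the gate used to sort the cells for the arrays is not stated. Every value below is a deposited log2 signal, so a difference of 1 is a 2-fold change, and the level of a gene is not compared with that of another gene, since their probes differ.

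Of the floxed gene itself, *Stk11* (which encodes Lkb1), the signal was 6.67, 6.41 and 5.55 on the Lkb1-deficient arrays and 6.73, 6.83 and 5.96 on the WT arrays. The difference was -0.30 ± 0.63 (SE), lower in all 3 replicate numbers, and since the files do not say which exons its probes cover, the signal is no check of the deletion. DC genes were measured on every array (*Flt3* 8.32 to 10.66, *H2-Aa* 10.81 to 12.27), and *Itgax*, which encodes CD11c, was 8.48 to 10.46 on all arrays but that of LPS, where it was 7.58. The arrays' medians followed the replicate number, at 4.59, 4.07 and 3.35 for Lkb1-deficient replicates 1 to 3 and 4.64, 4.09 and 3.40 for the WT replicates, so arrays of the same number were also set against each other. Markers of other cells differed along the same numbers. The mean of 8 neutrophil markers, relative to the array median, was 0.96, 0.33 and 4.75 on the Lkb1-deficient arrays and 0.77, -0.30 and 4.79 on the WT arrays, and that of 9 B cell markers was 3.06, 1.67 and 4.07 against 2.59, 2.19 and 4.69. On that scale both lists were thus highest on the arrays numbered 3 in either genotype.

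**Figure D1:**
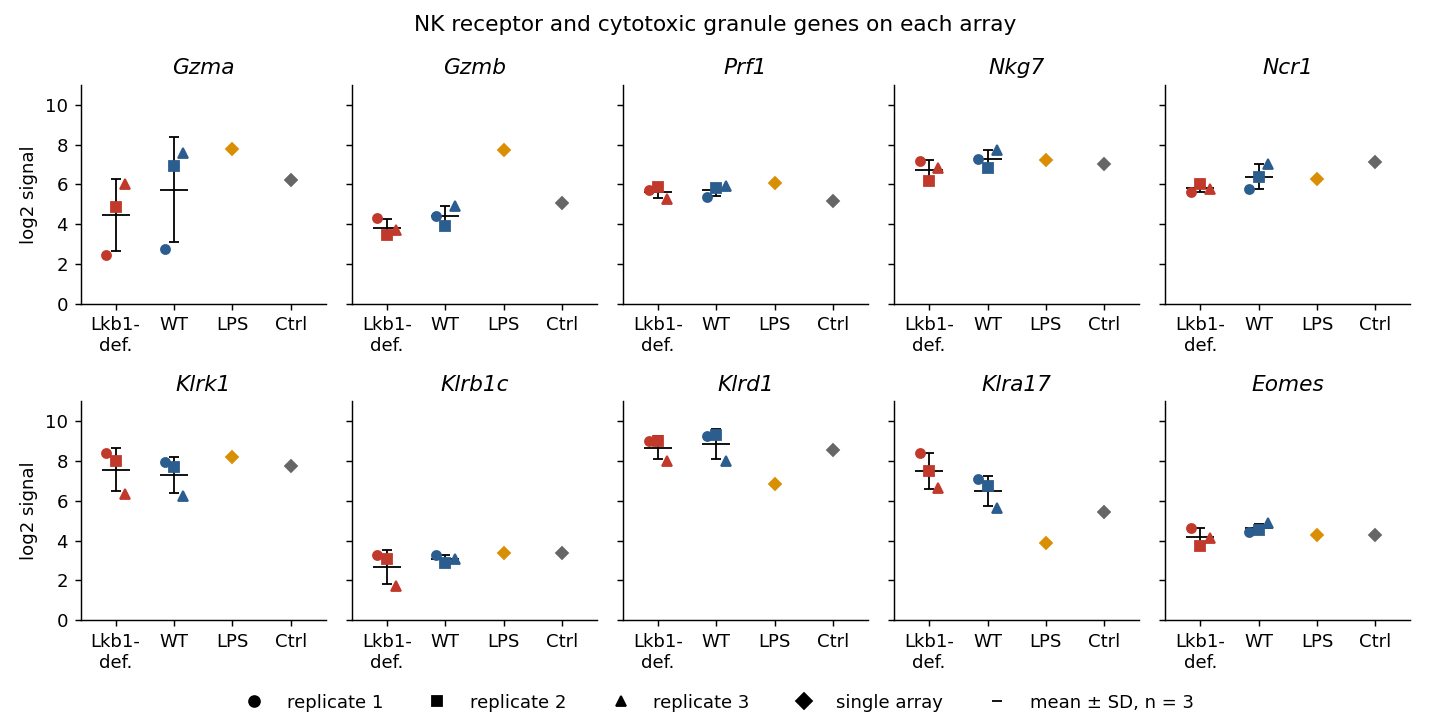
Log2 signal (vertical axes) of the 10 genes on each of the 8 arrays, with Lkb1-deficient, WT, LPS and control arrays from left to right; bars give the mean and SD of 3 arrays. *Gzma* spans 2.73 to 7.56 among the WT arrays, *Gzmb* stands highest on the LPS array at 7.71, and *Klra17* and *Klrd1* stand lowest there at 3.86 and 6.83.

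None of the 10 genes passed an adjusted p of 0.05 between Lkb1-deficient and WT DCs (limma, Benjamini-Hochberg over 41345 probe sets), in a comparison in which 0.00967% of all probe sets passed (4, all higher). With the replicate number as a block 0.23% passed (95 probe sets; 0.206% higher and 0.0242% lower), and again none of the 10, whose lowest adjusted p there was 0.110 (limma), for *Klra17*. At an unadjusted p under 0.05 the counts were 1 (*Gzma*) without the block, against 0.36% of all probe sets, and 4 with it (*Gzma*, *Gzmb* and *Nkg7* lower, *Klra17* higher), against 11.4%. Without the block, that p rests on a spread shared by every probe set, not on that of the gene. The differences of the 10 genes ran between -1.29 and 1.01, with a median of -0.43, against -0.02 over all probe sets. By replicate number, 4 were lower in Lkb1-deficient DCs all 3 times (*Gzma*, *Gzmb*, *Nkg7*, *Ncr1*) and 2 were higher all 3 times (*Klrk1*, *Klra17*), where 16.9% and 13.3% of all probe sets were. LPS and control DCs, with 1 array each, allowed no test. There 3 genes were at least 1.5-fold higher (*Gzmb*, *Gzma*, *Prf1*) and 3 at least 1.5-fold lower (*Klrd1*, *Klra17*, *Ncr1*), against 3.63% and 3.95% of 33649 probe sets. In bulk arrays such as these, fewer cells of a type and less RNA per cell cannot be told apart.

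Promoter sequences of 9 of the 10 genes were found in RefSeq (GRCm38.p6). The 250 bases before the start are shown for both granzymes, which had the largest LPS increases of the 10, and for *Klra17*, which had the largest increase without Lkb1. Capitals mark letters that match, on either strand, a T-box core (AGGTGT), a RUNX core (TGTGGT), an interferon-stimulated response element core (GAAA, any 2 bases, GAAA) or an AP-1 site (TGANTCA); these motifs were chosen after the windows had been seen. The windows lie at chr13:113100982-113101231 for *Gzma*, chr14:56262335-56262584 for *Gzmb* and chr6:129876673-129876922 for *Klra17*, all on the minus strand, and are written 5′ to 3′ along the gene.
Gzma: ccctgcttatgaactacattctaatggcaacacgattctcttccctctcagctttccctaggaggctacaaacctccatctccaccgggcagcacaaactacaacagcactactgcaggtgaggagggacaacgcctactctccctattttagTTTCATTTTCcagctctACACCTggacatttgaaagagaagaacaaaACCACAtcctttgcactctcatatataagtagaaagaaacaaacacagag
Gzmb: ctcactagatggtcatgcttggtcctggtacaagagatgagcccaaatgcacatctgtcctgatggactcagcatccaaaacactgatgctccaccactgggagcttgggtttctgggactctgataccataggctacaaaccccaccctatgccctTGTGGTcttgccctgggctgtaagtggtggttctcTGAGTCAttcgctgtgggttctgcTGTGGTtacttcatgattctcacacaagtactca
Klra17: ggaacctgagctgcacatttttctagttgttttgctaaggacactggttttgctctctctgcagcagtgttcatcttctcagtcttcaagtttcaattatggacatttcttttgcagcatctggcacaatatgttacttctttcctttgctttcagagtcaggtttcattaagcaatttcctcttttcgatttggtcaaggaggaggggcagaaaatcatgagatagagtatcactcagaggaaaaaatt
The *Gzma* window held the interferon-stimulated core at positions -97 to -88, the T-box core at -80 to -75 and the RUNX core at -50 to -45, each on the reverse strand and counted back from the start. The *Gzmb* window held the RUNX core at -93 to -88 and at -34 to -29 and the AP-1 site at -58 to -52. No letters of the *Klra17* window matched any of the 4 motifs. No base lay in 2 motifs. Such matches are common: of 32851 promoter windows of this length, 11.8% held the T-box core, 14.0% the RUNX core, 2.98% the interferon-stimulated core and 6.75% the AP-1 site. Among the other members the T-box core occurred in *Nkg7* and *Prf1*, the interferon-stimulated core in *Eomes*, and the RUNX core in *Klrb1c*, *Klrk1*, *Ncr1*, *Nkg7* and *Prf1*. These are matches of letters and say nothing of binding.

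Granzyme A, a tryptase of the lytic granule, varied most. *Gzma* measured 2.46, 4.86 and 6.03 on Lkb1-deficient arrays 1, 2 and 3, and 2.73, 6.93 and 7.56 on the WT arrays of the same numbers. The groups overlapped, replicate 1 was low in both genotypes, and the spread among WT arrays alone (4.82, or 28.3-fold) exceeded the difference between genotypes. That difference was -1.29 (2.44-fold lower in Lkb1-deficient DCs, 95% interval -2.52 to -0.05, unadjusted p = 0.0411 and adjusted p = 1 by limma). This interval and p rest on a spread shared by every probe set, not on that of *Gzma*. In a t-test, which uses the spread of *Gzma* itself, the SE was 1.84, larger than the difference. The interval is therefore no evidence that *Gzma* differed. By number the difference was -0.27, -2.07 and -1.52. The LPS array read 7.78 and the control array 6.24, a difference of 1.54 (2.92-fold higher with LPS), which is smaller than the spread of *Gzma* among the WT arrays of the other experiment.

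Granzyme B, which starts apoptosis in the target cell by cleaving caspases and their substrates, showed the biggest LPS difference of the 10. *Gzmb* was 7.71 on the LPS array and 5.04 on the control array, a difference of 2.67 (6.38-fold), and the LPS value was above that of the other 7 arrays. In Lkb1-deficient DCs it was 4.30, 3.46 and 3.71, against 4.43, 3.88 and 4.91 in WT DCs. The difference of -0.59 (95% interval -1.82 to 0.65, adjusted p = 1, limma) came mostly from replicate 3, with -0.14, -0.42 and -1.21 by number. *Gzmb* was lower in Lkb1-deficient DCs for each number, and the groups overlapped. On replicates 1 and 2 of both genotypes it lay under the array median.

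Perforin, the pore-forming protein that lets granzymes into the target, differed less. *Prf1* was 5.73, 5.87 and 5.27 in Lkb1-deficient DCs and 5.37, 5.79 and 5.94 in WT DCs, with differences of 0.36, 0.08 and -0.67 by number and a mean of -0.08 (95% interval -1.31 to 1.16). The sign was not the same between replicates. With LPS it was 6.06, against 5.17 in control DCs (0.89, or 1.86-fold higher). *Nkg7*, a membrane protein of the granules needed for their release, was 7.15, 6.19 and 6.83 in Lkb1-deficient DCs and 7.28, 6.83 and 7.73 in WT DCs. It was lower for each number (-0.12, -0.64 and -0.90; mean -0.55, 95% interval -1.79 to 0.68), while LPS and control arrays were close (7.20 and 7.02).

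**Figure D2:**
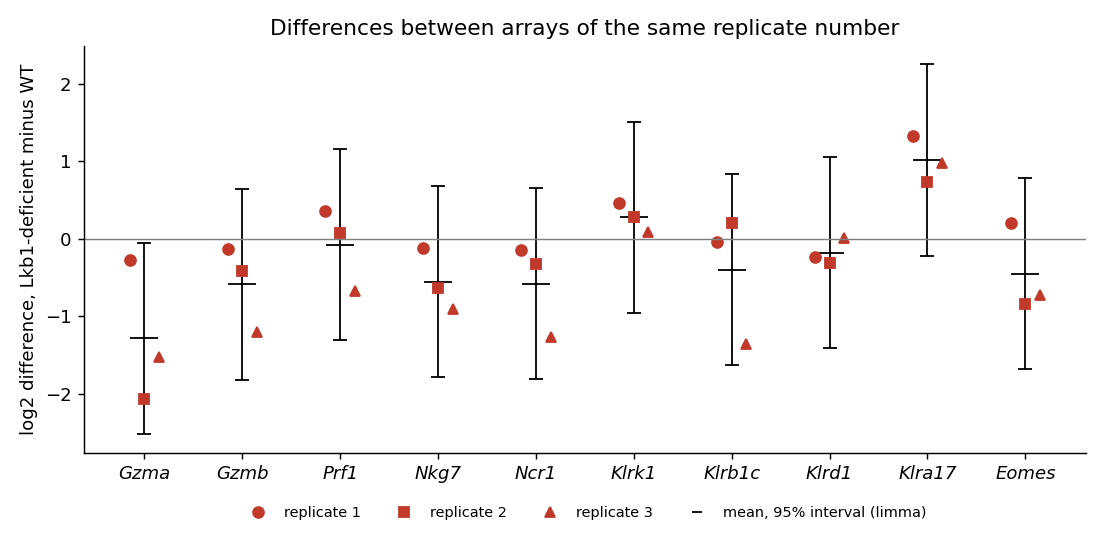
Difference in log2 signal (vertical axis), Lkb1-deficient minus WT, for each gene (horizontal axis) between arrays of the same replicate number (points), with the mean and the 95% interval of limma without a block (bars). All 3 points lie above 0 for *Klrk1* and *Klra17* and below 0 for *Gzma*, *Gzmb*, *Nkg7* and *Ncr1*. The interval of *Gzma* alone does not reach 0, but all intervals use 1 spread shared by every probe set, not that of the gene.

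Among the activating receptors, *Ncr1* encodes NKp46, the receptor by which NK cells are most often defined in mice. It was 5.63, 6.04 and 5.77 in Lkb1-deficient DCs and 5.78, 6.36 and 7.04 in WT DCs, lower by number each time (-0.15, -0.32 and -1.27; mean -0.58, 95% interval -1.82 to 0.65). It was also lower with LPS, at 6.25 against 7.11 in control DCs (-0.86, 1.81-fold). *Ncr1* was the only one of the 10 that was lower for all 3 numbers without Lkb1 and at least 1.5-fold lower with LPS.

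*Klrk1* encodes NKG2D, which binds stress-induced ligands. It measured 8.39, 8.00 and 6.34 in Lkb1-deficient DCs and 7.94, 7.72 and 6.25 in WT DCs, slightly higher by number each time (0.45, 0.28 and 0.09; mean 0.27, 95% interval -0.96 to 1.51). The LPS array gave 8.20 and the control array 7.77. *Klrb1c* encodes NK1.1, the marker used to stain NK cells of C57BL/6 mice, and it lay under the array median on every array. It was 3.25, 3.06 and 1.70 in Lkb1-deficient DCs and 3.30, 2.85 and 3.07 in WT DCs. The array of replicate 3 decided its mean difference of -0.40 (95% interval -1.64 to 0.83), since the differences by number were -0.04, 0.21 and -1.37. On the LPS and control arrays *Klrb1c* was 3.37 and equal to the last digit, as were 54.2% of all probe sets.

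*Klrd1* encodes CD94, which pairs with NKG2 chains to read a non-classical MHC molecule. It was 9.03, 9.0 and 8.02 in Lkb1-deficient DCs and 9.27, 9.31 and 8.01 in WT DCs, a mean difference of -0.18 (95% interval -1.42 to 1.05), with replicate 3 lower than the others in both genotypes. With LPS it was 6.83, against 8.57 in control DCs (-1.74, 3.34-fold lower), the biggest LPS decrease of the 10 and a value under those of the other 7 arrays.

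*Klra17* encodes Ly49Q, an inhibitory receptor for MHC class I that in mice is known chiefly from plasmacytoid DCs and myeloid cells rather than NK cells. It measured 8.43, 7.48 and 6.63 in Lkb1-deficient DCs and 7.10, 6.75 and 5.65 in WT DCs. Each Lkb1-deficient array was above the WT array of its number (1.32, 0.74 and 0.98), while the groups as deposited overlapped. The mean difference was 1.01 (2.02-fold; 95% interval -0.22 to 2.25, unadjusted p = 0.108, adjusted p = 1, limma). Relative to each array's median the groups did not overlap, at 3.28 to 3.83 in Lkb1-deficient DCs against 2.25 to 2.65 in WT DCs, as was so for 2.9% of all probe sets in that direction (1.53% in the other) and for no other of the 10. As deposited, the groups overlapped for all 10, and did not overlap for 0.38% of all probe sets with Lkb1-deficient DCs higher and 0.193% with them lower. With LPS *Klra17* was 3.86, against 5.46 in control DCs (-1.59, 3.02-fold lower). The Ly49 genes are close copies of each other, so signal from related transcripts in this probe set was not tested.

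*Eomes*, a transcription factor of NK cell and memory T cell maturation, was 4.66, 3.72 and 4.16 in Lkb1-deficient DCs and 4.46, 4.55 and 4.88 in WT DCs. By number the differences were 0.20, -0.84 and -0.72, with a mean of -0.45 (95% interval -1.69 to 0.78), and the LPS and control arrays were equal to the last digit at 4.28.

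**Figure D3:**
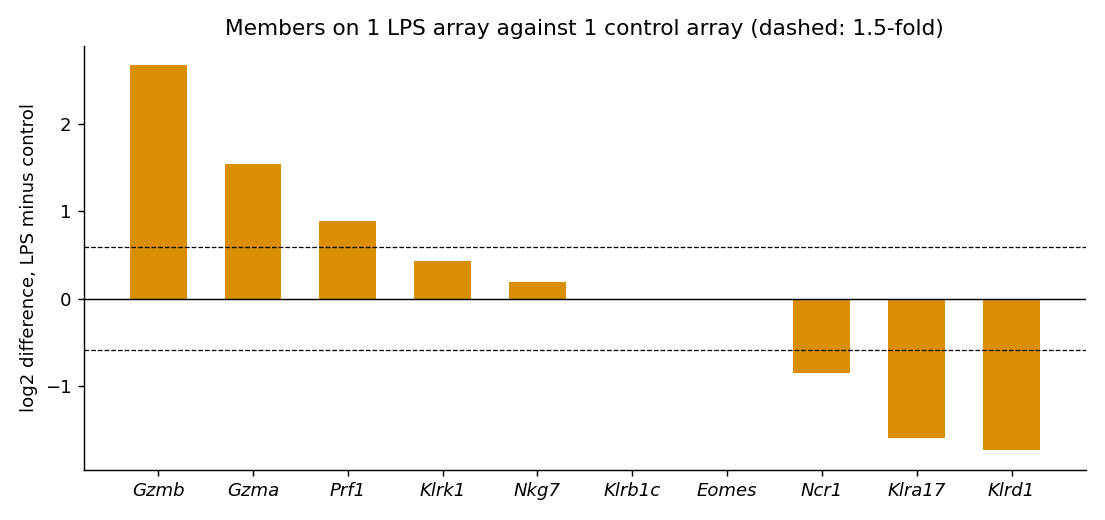
Difference in log2 signal (vertical axis), 1 LPS array minus 1 control array, for the 10 genes (horizontal axis); dashed lines mark 1.5-fold. *Gzmb* (2.67), *Gzma* (1.54) and *Prf1* (0.89) lie above the upper line, *Klrd1* (-1.74), *Klra17* (-1.59) and *Ncr1* (-0.86) below the lower one, and *Klrb1c* and *Eomes* are at 0.

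Centred on its array's median, 8 of the 10 genes followed 1 of 2 patterns across the replicate numbers, a description that shares the arrays' levels. *Gzma* was -2.13, 0.79 and 2.68 on the Lkb1-deficient arrays and -1.91, 2.84 and 4.16 on the WT arrays, highest on replicate 3. *Ncr1* did likewise, at 1.04, 1.96 and 2.42 against 1.14, 2.27 and 3.64. *Gzmb*, *Nkg7*, *Prf1* and *Eomes* were also highest on replicate 3 in both genotypes after centring. So were the neutrophil and B cell lists and the NK, T cell and plasmacytoid DC lists described below. The conventional DC list and the macrophage and monocyte list were not. As deposited, the summed linear signal was highest on replicate 3 in both genotypes for the neutrophil list alone. For the NK list it was lowest there (6293, 4285 and 2369 against 7051, 5626 and 2889). The T cell sum was highest on replicate 1 in both genotypes. Among the Lkb1-deficient arrays the B cell and plasmacytoid DC sums were also highest on replicate 1. As deposited, replicate 3 was not the highest Lkb1-deficient array for *Ncr1*, *Gzmb*, *Nkg7*, *Prf1* or *Eomes*. In contrast, centred *Klrk1* was lowest on replicate 3 (3.80, 3.93 and 2.99 against 3.30, 3.63 and 2.85), as was *Klra17* (3.83, 3.41 and 3.28 against 2.47, 2.65 and 2.25). *Klrd1*, at 4.43, 4.93 and 4.67 against 4.63, 5.22 and 4.61, followed neither pattern. Nor did *Klrb1c*, which was lowest on replicate 3 among the Lkb1-deficient arrays (-1.34, -1.01 and -1.65) and highest there among the WT arrays (-1.34, -1.24 and -0.33).

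Of 22 NK cell markers listed, 20 were measured, 5 of them among the 10 genes. None passed the adjusted test (limma, with or without the block). At an unadjusted p under 0.05 there were 1 without and 5 with the block (limma), all lower. Over all probe sets the shares were 0.36% and 11.4%. The median difference of the 20 markers was -0.32. In Lkb1-deficient DCs 8 were lower for all 3 numbers and 1 higher, where 16.9% and 13.3% of all probe sets were. Without the 5 members, 15 markers had a median of -0.26 and 6 were lower for all 3 numbers and 1 higher. *Itga2*, which encodes the integrin CD49b used to stain NK cells, was 4.85, 3.48 and 4.03 in Lkb1-deficient DCs and 5.41, 4.28 and 5.23 in WT DCs (-0.85, 95% interval -2.09 to 0.38). The mean difference of the 20 markers was -0.03, -0.37 and -0.69 for replicates 1, 2 and 3. For the 15 without members it was -0.05, -0.29 and -0.55, the order seen in *Gzmb*, *Nkg7* and *Ncr1*. B cell markers had mean differences of 0.43, -0.54 and -0.67, and the 12 T cell markers 0.20, -0.11 and 0.03. The summed linear signal of the NK list was 2369 to 6293 on Lkb1-deficient arrays and 2889 to 7051 on WT arrays; none of its markers was at 0, and its part in the differences of the granule genes was not tested. On the LPS array that sum was 9818, against 5240 on the control array, with 3 of the 20 markers at least 1.5-fold higher and 3 lower. The higher sum came from *Ccl5*, without which the other 19 markers summed to 1163 on the LPS array and 2415 on the control array. That lower sum came in turn from *Cd7*, so neither sum describes the list as a whole. *Ccl5* and *Cd7* also held most of the sum on each Lkb1-deficient and WT array. The chemokine gene *Ccl5*, itself used by activated DCs, was 13.08 with LPS and 11.46 in control DCs, while the surface protein gene *Cd7* was 7.11 against 10.47 and the chemokine gene *Xcl1* 6.20 against 7.19. DC markers differed as well: 8 of 14 conventional DC markers were at least 1.5-fold lower on the LPS array, including *Itgax* (7.58 against 10.31), the chemokine receptor gene *Xcr1* of cross-presenting DCs (3.32 against 7.24) and the lectin gene *Clec4a4* of the other main subset (5.01 against 8.55), and 5 of 8 neutrophil markers were at least 1.5-fold higher. Over all probe sets, 3.95% were at least 1.5-fold lower on that array and 3.63% higher. The part of the DC and neutrophil markers in the LPS differences was not tested.

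The remaining granule genes differed little. Of 17 listed, 16 were measured and none passed the test between genotypes (limma, 0 at an unadjusted p under 0.05, and 4 with the block), with a median difference of 0.0037. For this and the lists below, 0.36% of all probe sets had an unadjusted p under 0.05 without the block (limma) and 11.4% with it. Past 1.5-fold with LPS, 3.63% of all probe sets were higher and 3.95% lower. Of the 16 granule genes 3 were at least 1.5-fold higher with LPS and 0 lower. The 3 were *Stx11*, *Lamp1* and *Gzmf*. *Stx11*, a syntaxin needed for granule fusion, was 8.30 with LPS and 7.34 in control DCs. *Lamp1*, a lysosomal membrane protein, was 10.49 against 9.83. *Gzmf*, at 2.50 against 1.89, lay under the array median on both arrays. Of 11 Ly49 genes 5 had a probe set of their own. Apart from *Klra17* these differed between genotypes by -0.74 to -0.02 and none passed the test (limma, 0 at an unadjusted p under 0.05, and 1 with the block). With LPS they went both ways: *Klra2* was 6.97 against 5.92 and *Klra5* 2.97 against 3.58.

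The other lectins of the NK gene complex gave 10 measured genes of 11, of which none passed the test (limma, 0 at an unadjusted p under 0.05, and 4 with the block). *Klrb1f*, a relative of NK1.1, was 7.96, 7.89 and 7.14 in Lkb1-deficient DCs and 8.83, 8.90 and 7.73 in WT DCs (-0.83), and was also lower with LPS, at 6.15 against 7.99. *Klrb1b*, an inhibitory relative, was 7.53, 6.41 and 5.03 in Lkb1-deficient DCs and 5.98, 5.15 and 4.24 in WT DCs (1.20). These relatives of NK1.1 therefore differed in opposite directions in all 3 replicate numbers, though neither reached an adjusted p under 0.05 (limma, 0.118 and 0.109 with the block). With LPS, past 1.5-fold, 2 of these lectins were lower and 0 higher: *Klrb1f* and *Klri1* (7.57 against 9.12).

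Of 12 measured adaptors and co-receptors besides the members, none passed the test (limma, 0 at an unadjusted p under 0.05, and 3 with the block). With LPS 3 lay past 1.5-fold, all of them lower. The signalling adaptor *Sh2d1b1* (EAT-2) was 8.60, 7.81 and 6.67 in Lkb1-deficient DCs and 9.42, 8.49 and 7.42 in WT DCs, and 6.14 with LPS against 7.92 in control DCs. *Tyrobp*, whose product DAP12 signals for several of the receptors, differed by -0.10 between genotypes and was 8.99 with LPS against 10.08 in control DCs. Of 8 measured transcription factors besides *Eomes* none passed (limma, 0 at an unadjusted p under 0.05, and 3 with the block). *Nfil3*, which NK cell development needs, was 9.05 with LPS against 7.26 in control DCs. *Prdm1* (Blimp-1) was 7.77 with LPS against 6.59, and *Id2*, which both NK cells and conventional DCs need, 11.48 against 10.62. *Tbx21*, the T-box relative of *Eomes*, was 5.21 on both of those arrays. Its mean difference between genotypes was -0.45, as for *Eomes*. By number *Tbx21* differed by -0.18, -0.91 and -0.28, lower each time, which *Eomes* was not. Of 12 measured genes for ligands that NK receptors bind none passed (limma, 0 at an unadjusted p under 0.05, and 5 with the block), and 5 were at least 1.5-fold higher with LPS and 1 lower. *Pvr*, a ligand of the receptors DNAM-1 and TIGIT, was 8.96, 8.21 and 7.12 in Lkb1-deficient DCs and 7.80, 7.42 and 6.14 in WT DCs (0.98). With LPS *Pvr* was 7.59 against 6.88 in control DCs, *Cd274*, the gene of the checkpoint ligand PD-L1, 10.97 against 9.86, and the classical MHC class I gene *H2-K1* 11.17 against 10.35.

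Of the genes listed as granzyme inhibitors, 2 showed differences that passed the test, with the replicate block only. The list held 5 serpins, protease inhibitors, all measured. None passed without the block (limma) and 2 rose with it (3 had an unadjusted p under 0.05 without it and 4 with it). *Serpinb9*, the inhibitor of granzyme B, was 10.16, 9.33 and 8.30 in Lkb1-deficient DCs and 8.15, 7.45 and 6.60 in WT DCs. The groups did not overlap, though the lowest Lkb1-deficient array (replicate 3) was near the highest WT array (replicate 1). The difference was 1.86 (3.64-fold; adjusted p = 1 without and 0.0305 with the block, limma). *Serpinb6b* was 10.06, 9.88 and 8.96 against 8.51, 8.31 and 7.51, also with no overlap, which 0.38% of all probe sets showed in that direction. The difference was 1.53 (2.88-fold; adjusted p = 1 without and 0.0316 with the block, limma). Without any 1 pair of arrays the block gave no calls at all. Both serpins were also higher with LPS, *Serpinb9* at 9.80 against 8.27 (2.91-fold) and *Serpinb6b* at 9.80 against 8.67 (2.18-fold). *Serpinb1a* was 6.96, 7.04 and 7.59 in Lkb1-deficient DCs and 5.14, 4.95 and 7.13 in WT DCs, the high WT value being on replicate 3, and was 4.68 with LPS against 4.97. *Serpinb6a* differed by -0.08 between genotypes. *Gzmb* and its inhibitor were thus both higher on the LPS array, whereas without Lkb1 *Serpinb9* was higher for all 3 numbers and *Gzmb* lower for all 3; this difference between the experiments was not tested.

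**Figure D4:**
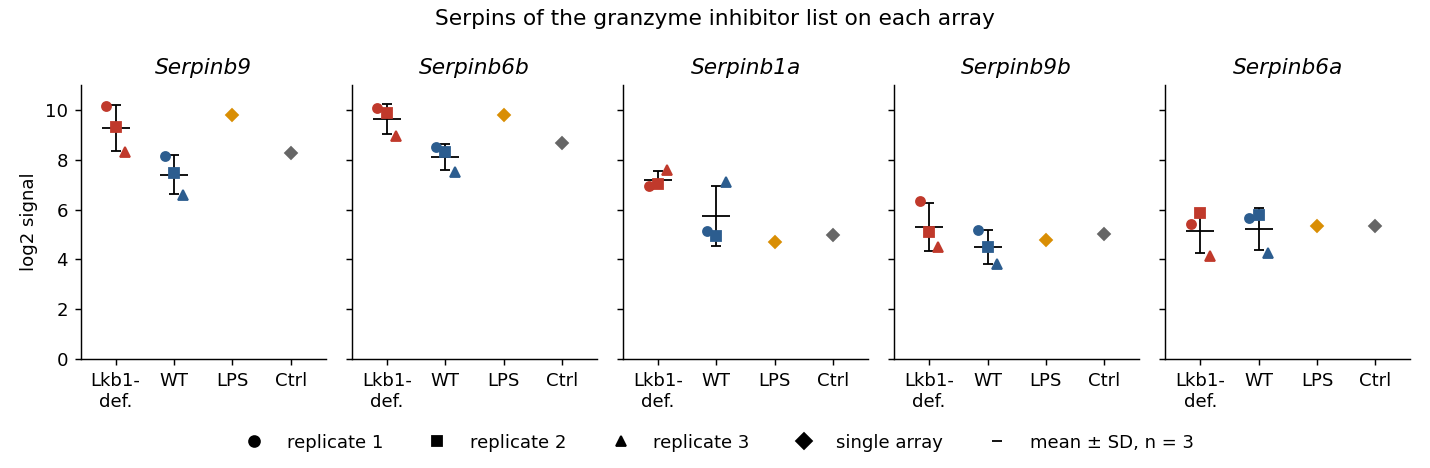
Log2 signal (vertical axes) of 5 serpin genes on the Lkb1-deficient, WT, LPS and control arrays, left to right, with mean and SD of 3 arrays. *Serpinb9* and *Serpinb6b* stand higher in Lkb1-deficient than in WT arrays of each number and higher on the LPS than on the control array.

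As *Klra17* is known from plasmacytoid DCs, other markers of these cells were examined. Of 13 listed besides *Klra17*, 12 were measured. In Lkb1-deficient DCs 7 were higher for all 3 numbers and 0 lower, where 13.3% and 16.9% of all probe sets were. The median difference of the 12 was 0.21. None passed without the block (limma, 1 at an unadjusted p under 0.05) and 1 rose with it. *Cox6a2*, a mitochondrial subunit gene found in plasmacytoid DCs, was 6.95, 7.93 and 7.49 in Lkb1-deficient DCs and 5.11, 6.07 and 6.11 in WT DCs. The difference was 1.69 (adjusted p = 1 without and 0.0334 with the block, limma). Its groups did not overlap as deposited but did relative to each array's median (from 2.35 against up to 2.71). *Atp1b1* was 8.05, 7.87 and 7.03 against 6.32, 6.58 and 6.78 (1.09), without overlap on either scale but with a replicate 3 difference of 0.25. Of all probe sets, 0.38% did not overlap in that direction as deposited and 2.9% after centring. *Siglech*, the usual surface marker, was 6.52, 7.30 and 7.11 against 6.40, 6.99 and 6.87, a difference of 0.22, well under that of *Klra17*. Both *Siglech* (4.79 against 6.43) and *Klra17* were lower on the LPS array, while *Irf7*, an interferon-induced regulator, was 10.49 against 8.05. Past 1.5-fold on that array, 5 of these 12 markers were lower and 4 higher. The summed linear signal of these 12, *Klra17* left out, was 2084 to 2595 in Lkb1-deficient DCs and 1648 to 2003 in WT DCs. On replicate 3 the sums were close, at 2084 and 2003. The mean log2 difference of the 12 was 0.20 there, while the bright *Ly6d* went the other way (8.51 against 9.06). The part of these markers in the *Klra17* difference was not tested.

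The 5 genes most like *Klra17* over the 8 arrays, by Pearson correlation of median-centred values among 13288 genes, were *Tcf19* (r = 0.991), *Cdca7* (0.985), *Mcm5* (0.983), *Dtl* (0.983) and *Cand1* (0.981). Their own differences were smaller, from 0.25 to 0.39 without Lkb1 and -0.72 to -0.33 with LPS. For *Gzma* they were *AI854703* (0.971), *Acr* (0.969), *Rilpl1* (0.965), *Pml* (0.963) and *Ifi35* (0.957). The likeness takes no account of size: *Acr* was equal on the LPS and control arrays, where *Gzma* differed by 1.54. As deposited, these 5 genes were lowest on replicate 3 in both genotypes, where *Gzma* was highest. *Acr* was 4.35, 4.39 and 3.91 in Lkb1-deficient DCs and 4.48, 4.5 and 4.18 in WT DCs. The likeness to *Gzma* is thus one of centred values only. All points share the arrays' levels, which the centring carries into every gene.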

How the data were processed

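RNA of splenic DCs was hybridised to Affymetrix Mouse Gene 2.0 ST arrays. The authors deposited log2 signals made with GeneSpring, 1 column per array; the submitters' processing notes name MAS5, and the summarisation, the normalization between arrays and the genome build were not given in the sources used here. No depth applies to arrays, and their number limits the precision. Lkb1-deficient and WT arrays were compared over 41345 probe sets with limma 3.58.1 in R 4.3.3, without a block, and p-values were adjusted by Benjamini-Hochberg; the estimated spread was the same for every probe set (SE 0.63). LPS and control arrays, over 33649 probe sets, were only subtracted. The fit was tested on simulated data. p-values measure the spread between these arrays, which may be technical.

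Deviations of same-numbered arrays from their group means correlated at 0.849, 0.795 and 0.738, and those of different numbers at -0.611 to -0.132; 2306, 1220 and 3422 probe sets (5.58%, 2.95% and 8.28%) were equal to the last digit within a number and 0 between numbers. The pairing is read from the labels' replicate numbers and these values; no source says what a number shares. A fit with the number as a block was therefore run beside the main one. With 3 arrays against 3, an exact two-sided permutation test could not go below 0.1.

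Genes were named through GEO's platform annotation, from probe sets with 1 symbol (the brightest where a gene had several); 2 further probe sets that list a member beside another gene were not used. Named genes were the 10 members, from each of 15 lists up to 4 with the largest LPS difference and up to 2 with the largest Lkb1 difference, defining markers where a result turned on them, and for *Gzma* and *Klra17* the 5 most alike genes. *Stk11*, *Serpinb6a*, *Lamp1*, *Gzmf*, *Tbx21*, *Flt3* and *H2-Aa* were named besides, after their values were seen. The members and lists were chosen with earlier results of these data known. Alternatives were quantile and median scaling, 16 added to the linear signal, a filter on dim probe sets, the methods' t-test, the block and leaving out arrays or pairs, the last added after seeing the data.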

Additional observations from a re-analysis of the deposited data

How the results depend on the processing

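No alternative brought any of the 10 genes past an adjusted p of 0.05 (limma, or the methods' t-test), and 139 of 149 values kept their sign. With 1 array left out and its same-numbered partner kept, *Gzma* ran between -2.79 and -0.29, *Klra17* between 0.56 and 1.45, *Klrk1* between -0.25 and 0.89, *Prf1* between -0.24 and 0.10, *Klrd1* between -0.61 and 0.15 and *Klrb1c* between -0.69 and 0.084. Signs turned for *Klrk1* (-0.13 without Lkb1-deficient replicate 1, -0.25 without WT replicate 3), *Prf1* (0.10 without Lkb1-deficient replicate 3, 0.04 without WT replicate 3, 0.22 with the replicate block and pair 3 left out), *Klrd1* (0.15 without Lkb1-deficient replicate 3, 0.02 without WT replicate 1, 0.04 without WT replicate 2) and *Klrb1c* (0.084 without Lkb1-deficient replicate 3 and 0.082 with the block and pair 3 left out); the cause was not tested. Over all probe sets, 4 passed in the main comparison, 95 with the replicate block, 2 after quantile scaling, 0 after median centring, 0 with 16 added and 0 by the methods' t-test (111 at an unadjusted p under 0.05). Without pair 1, 2 or 3, the blocked counts were 0, 0 and 0 (limma, 3182, 3683 and 3694 at an unadjusted p under 0.05), and without a block and with 1 array left out the counts ran between 0 and 10. The block changed no call among the 10. With LPS the counts of 3 higher and 3 lower genes were the same after quantile scaling and with 16 added, and at 2-fold they were 2 and 2. *Klrb1c* had no value under the filter on dim probe sets. Each gene had 1 probe set, so another choice of probe set gave no second value.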
